A study of Mus musculus with 17 samples.

Results

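The response of brown adipose tissue to a short cold exposure is described here for the wild-type animals of a study on the circadian protein Nocturnin (gene symbol Noct). The comparison sets 5 wild-type mice kept for 4 h at 6 °C against 4 wild-type mice kept for 4 h at 22 °C, which makes 9 of the 17 libraries in the series. The members were taken from the sample labels, with 1 library per mouse. All 9 mice carried the genotype label Noc+/+ on a C57BL/6 background, were littermates of Nocturnin knockouts, were assigned to a temperature at random, and were kept alone and without food for the 4 h, so both temperatures share the fasting and the single housing. The labels give 7 of the 9 as female, with 1 male in each temperature group, and ages from 11.14 to 23.57 without a unit, while the series text gives a range in weeks that does not reach the highest of these. The remaining 8 libraries, Nocturnin knockouts at the same temperatures, entered the statistical model for its estimate of the spread and are described only where the wild-type response was set against theirs.

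Brown adipose tissue is a fat depot whose cells hold many mitochondria and burn fatty acids and glucose to make heat. In the cold, sympathetic nerves release noradrenaline in the tissue, beta-adrenergic receptors raise cyclic AMP in the adipocytes, and protein kinase A acts on lipolysis and on transcription through factors of the CREB and ATF families. The adipocytes are accompanied by a dense capillary bed, pericytes, nerve endings, macrophages and progenitor cells, and an mRNA library of the whole tissue holds the transcripts of all of them. In such bulk libraries fewer cells of a type and less RNA per cell cannot be told apart.

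Library totals ran from 26921197 to 47598200 counts at 22 °C and from 18410748 to 33663371 at 6 °C, and mitochondrially encoded genes took 43.4 to 52.2% of each. Noct itself, which the knockouts lack, read 91.5, 152, 139 and 176 counts per 1000000 library counts (CPM) in the 22 °C libraries and 457, 372, 303, 238 and 360 CPM in the 6 °C libraries. Every wild-type value lay above the range of the knockouts, 3.37 to 34.2 CPM, so no library went against its genotype label. The wild-type rise of Noct was 1.33 ± 0.44 on the log2 scale (SE, edgeR quasi-likelihood test, adjusted p = 0.0332), and the adjusted p lay between 0.0290 and 0.0925 when 1 library was left out. It was above 0.05 without any 1 of the 22 °C libraries 1, 2 and 3 and the 6 °C libraries 1, 2 and 5, and 0.0826 under total-count scaling. In other edgeR fits the adjusted p of Noct was lower, 0.0012 on the wild-type libraries only and 0.00401 with sex and age as terms. The first principal component of the 9 libraries took 37.9% of their variance and separated the temperatures, from -43.6 to -20.7 at 22 °C and from 8.20 to 45.9 at 6 °C. The 22 °C library 2 and the 6 °C library 4 stood nearest to the other temperature. The second component, 24.6%, spread both groups. Brown adipocyte markers were high in every library, with a summed level of 10915 to 12259 CPM at 22 °C and 13004 to 15572 CPM at 6 °C. Summed skeletal muscle markers varied widely within both groups, 33.2 to 791 CPM at 22 °C and 48.6 to 1007 CPM at 6 °C, and none of the 15 passed the test.

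Cold changed 3450 of the 12486 tested genes (27.6%) at an adjusted p under 0.05, with 1786 higher at 6 °C (14.3%) and 1664 lower (13.3%). A change of more than 2-fold was found for 273 risen genes (2.19%) and 491 fallen genes (3.93%). The median log2 change over all tested genes was -0.03, with quartiles of -0.34 and 0.25. Scaling each library to its total count shifted that median to -0.23 and the split of calls from 51.8% higher to 860 higher and 2873 lower genes, so counts of list members with calls are also given below under that scaling. Of the called genes, 2044 kept their call without any 1 wild-type library, without the sex term and with the replicate number as a block. Without the 22 °C library 2 and the 6 °C library 4 together, 3186 genes passed, and 2856 of them were shared with the same direction.

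**Figure D1:**
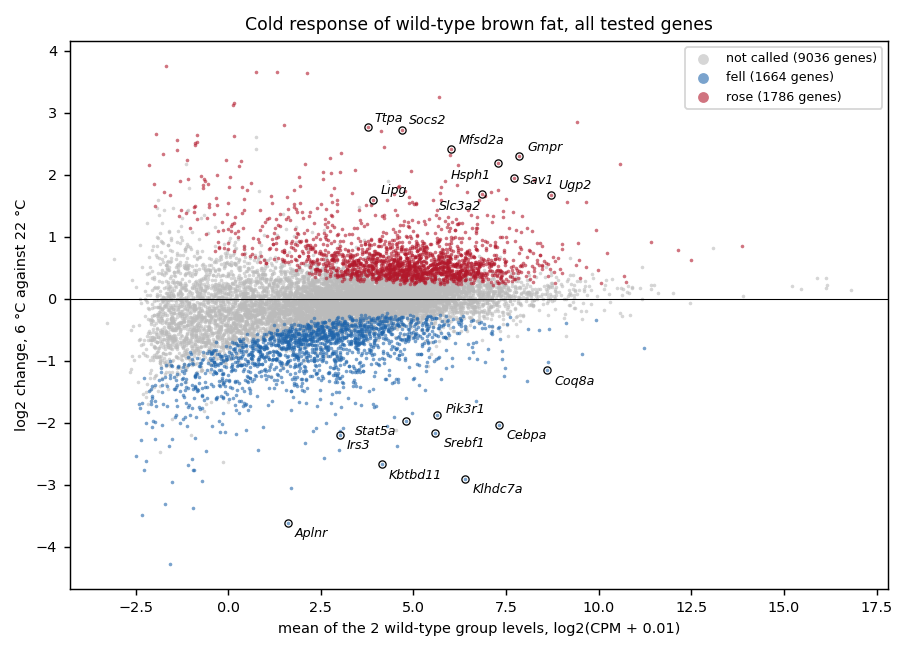
Log2 change at 6 °C against 22 °C (vertical axis) by the mean of the wild-type group levels in log2(CPM + 0.01) (horizontal axis) for 12486 tested genes, coloured by the call at an adjusted p under 0.05. Named rises such as Ttpa and Socs2 lie above 2 on the vertical axis, and Aplnr lies at -3.61.

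Largest changes are given among genes with at least 5 CPM in 1 group, temperatures that do not overlap and a call kept without any 1 wild-type library, without the sex term and with the block. Outside the known heat-making genes these rises were spread over vitamin transport, cytokine signalling and nucleotide metabolism. Ttpa, which encodes the alpha-tocopherol transfer protein that carries vitamin E, read 3.12, 6.56, 2.00 and 2.27 CPM at 22 °C and 20.1, 18.3, 26.2, 26.9 and 26.8 CPM at 6 °C, a rise of 2.76 ± 0.39 (log2, SE, adjusted p = 0.00013). Socs2, an inhibitor of growth hormone signalling, read 4.26, 17.5, 5.29 and 4.04 CPM at 22 °C and 58.6, 29.8, 43.9, 43.6 and 43.3 CPM at 6 °C (2.72 ± 0.41, adjusted p = 0.000178). In both genes the 22 °C library 2 was the highest of its group and still lay below every cold library.

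Mfsd2a, a transporter of lysophosphatidylcholine, rose from 3.02, 37.1, 22.1 and 24.8 CPM to 139, 67.0, 102, 110 and 119 CPM (2.41 ± 0.51, adjusted p = 0.00236). The 22 °C library 1 was far below the other 3 of its group. Gmpr, which turns GMP back into IMP, rose from 39.2 to 174 CPM at 22 °C to 226 to 525 CPM at 6 °C (2.30 ± 0.43, adjusted p = 0.0011). Further rises of more than 4-fold on the fitted scale were found for the polo-like kinase Plk3 (2.44 ± 0.46), the small MAF protein Maff (2.35 ± 0.35), the neuronal differentiation gene Cend1 (2.27 ± 0.31), the HSP110 chaperone Hsph1 (2.19 ± 0.29) and the collagen prolyl hydroxylase subunit P4ha1 (2.16 ± 0.28). Ppargc1a (2.86 ± 0.35) and Dio2 (2.17 ± 0.22), both well known in cold-exposed brown fat, were also among the 12 largest.

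The 12 largest falls by the same conditions held receptors, a pair of kelch proteins and parts of insulin and lipid signalling. Aplnr, the apelin receptor, read 5.83, 6.62, 2.87 and 7.29 CPM at 22 °C and 0, 0.527, 0.0776, 0.813 and 0.694 CPM at 6 °C (-3.61 ± 0.50, adjusted p = 0.000101). Klhdc7a, a kelch-domain protein, read 162, 125, 160 and 144 CPM at 22 °C and 8.44, 14.8, 8.30, 43.9 and 26.0 CPM at 6 °C (-2.90 ± 0.38, adjusted p = 6.34e-05). Kbtbd11, a kelch and BTB protein, read 36.9, 28.2, 30.8 and 26.1 CPM against 2.44, 4.62, 3.57, 7.38 and 5.81 CPM (-2.67 ± 0.27, adjusted p = 1.57e-05). In both kelch genes the 6 °C library 4 was the highest of its group.

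Srebf1, which encodes the lipogenic transcription factor SREBP-1, fell from 88.8, 85.7, 75.4 and 61.2 CPM to 11.7, 16.3, 11.6, 26.1 and 21.1 CPM (-2.16 ± 0.31, adjusted p = 0.000135). The apoptosis-inducing cytokine Tnfsf10 (-2.56 ± 0.31), the lactate sensor Hcar1 (-2.43 ± 0.44), the small GTPase Rasl12 (-2.37 ± 0.28), the chromatin protein Bahcc1 (-2.32 ± 0.27), the insulin receptor substrate Irs3 (-2.19 ± 0.19), the receptor tyrosine kinase Kit (-2.13 ± 0.28), the AMP deaminase Ampd2 (-2.13 ± 0.22) and the exchange factor Ralgds (-2.09 ± 0.33) made up the rest of the 12 largest falls. Kit is also a mast cell marker. Summed neutrophil and mast cell markers were at 8.15 to 18.1 CPM at 22 °C and 3.63 to 6.08 CPM at 6 °C. That sum includes Kit itself, at 5.78 to 12.7 CPM at 22 °C and 1.08 to 2.34 CPM at 6 °C. Of the 4 tested markers only Kit passed the test, and Ly6g was at 0 in every wild-type library. The part of those cells in the change of Kit was not tested.

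**Figure D2:**
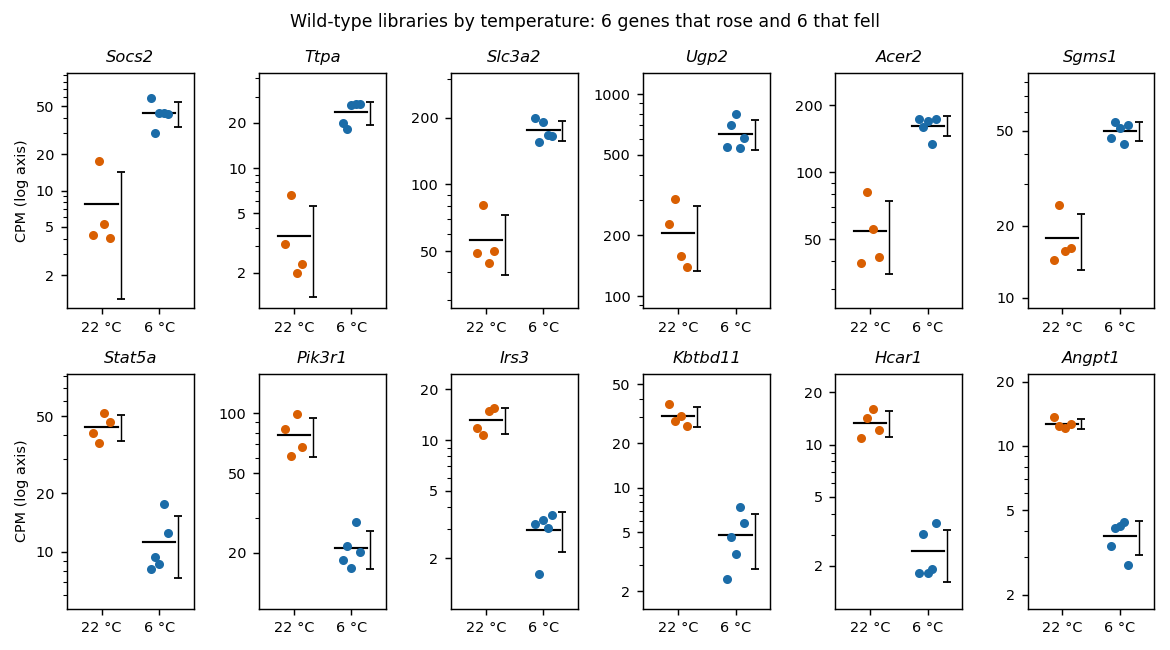
CPM on a log axis of each wild-type library at 22 °C (orange, 4 libraries) and 6 °C (blue, 5 libraries) for 6 genes that rose and 6 that fell. Horizontal bars are means and whiskers are SD. In each of the 12 genes the temperatures do not overlap, and the 22 °C library 2 is the highest of its group in Socs2, Ttpa, Slc3a2, Ugp2, Acer2 and Sgms1.

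Levels compared between genes per length, as reads per 1000 bases and 1000000 counted reads (RPKM), gave a different set at the top. Ucp1, the proton carrier that makes heat, rose most on the RPKM scale, from 3090 ± 469 to 4122 ± 373 RPKM (SD, n = 4 and n = 5), although its log2 change was only 0.63 ± 0.14. Pdk4, the kinase that shuts off pyruvate dehydrogenase, rose from 607 ± 92.5 to 987 ± 179 RPKM. Cdo1, cysteine dioxygenase, which starts the conversion of cysteine to taurine, rose from 655 ± 75.7 to 942 ± 89.0 RPKM (0.74 ± 0.15, adjusted p = 0.00163). The cytosolic chaperone Hsp90ab1 rose from 231 ± 40.1 to 430 ± 75.9 RPKM.

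Among falls on the RPKM scale, Dgat2, which completes triglyceride synthesis, went from 193 ± 38.0 to 82.6 ± 7.71 RPKM (-1.02 ± 0.18, adjusted p = 0.000785). Cebpa, a transcription factor of adipocyte differentiation, fell from 109 ± 17.3 to 23.4 ± 7.33 RPKM (-2.03 ± 0.28, adjusted p = 0.000101). Coq8a, a mitochondrial protein needed for coenzyme Q synthesis, fell from 113 ± 13.9 to 44.9 ± 14.5 RPKM (-1.15 ± 0.24, adjusted p = 0.0019). The nuclear protein Ptms and the glutamine transporter Slc1a5 were the other two, the latter from 65.3 ± 11.1 to 24.2 ± 4.17 RPKM (-1.24 ± 0.19, adjusted p = 0.000255).

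To describe pathways beyond the heat-making genes, 52 lists of gene families and pathways were counted. Counts are to be read beside all tested genes, of which 14.3% rose and 13.3% fell. Under total-count scaling, 860 of the 12486 rose and 2873 fell. Among these lists the highest share of rises was that of cytosolic aminoacyl-tRNA synthetases, of which 55% rose and 0% fell, and the highest share of falls that of receptors coupled to G proteins, of which 11.4% rose and 34.1% fell. Several large families had shares below those of all genes. Only 2 of 79 cytosolic ribosomal proteins, 6 of 76 mitochondrial ribosomal proteins and 0 of 10 RGS proteins passed the test, where 0, 10 and 1 did under total-count scaling. The most abundant RGS gene, Rgs5, read 295 to 368 CPM at 22 °C and 353 to 429 CPM at 6 °C (0.21 ± 0.15, adjusted p = 0.304).

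**Figure D3:**
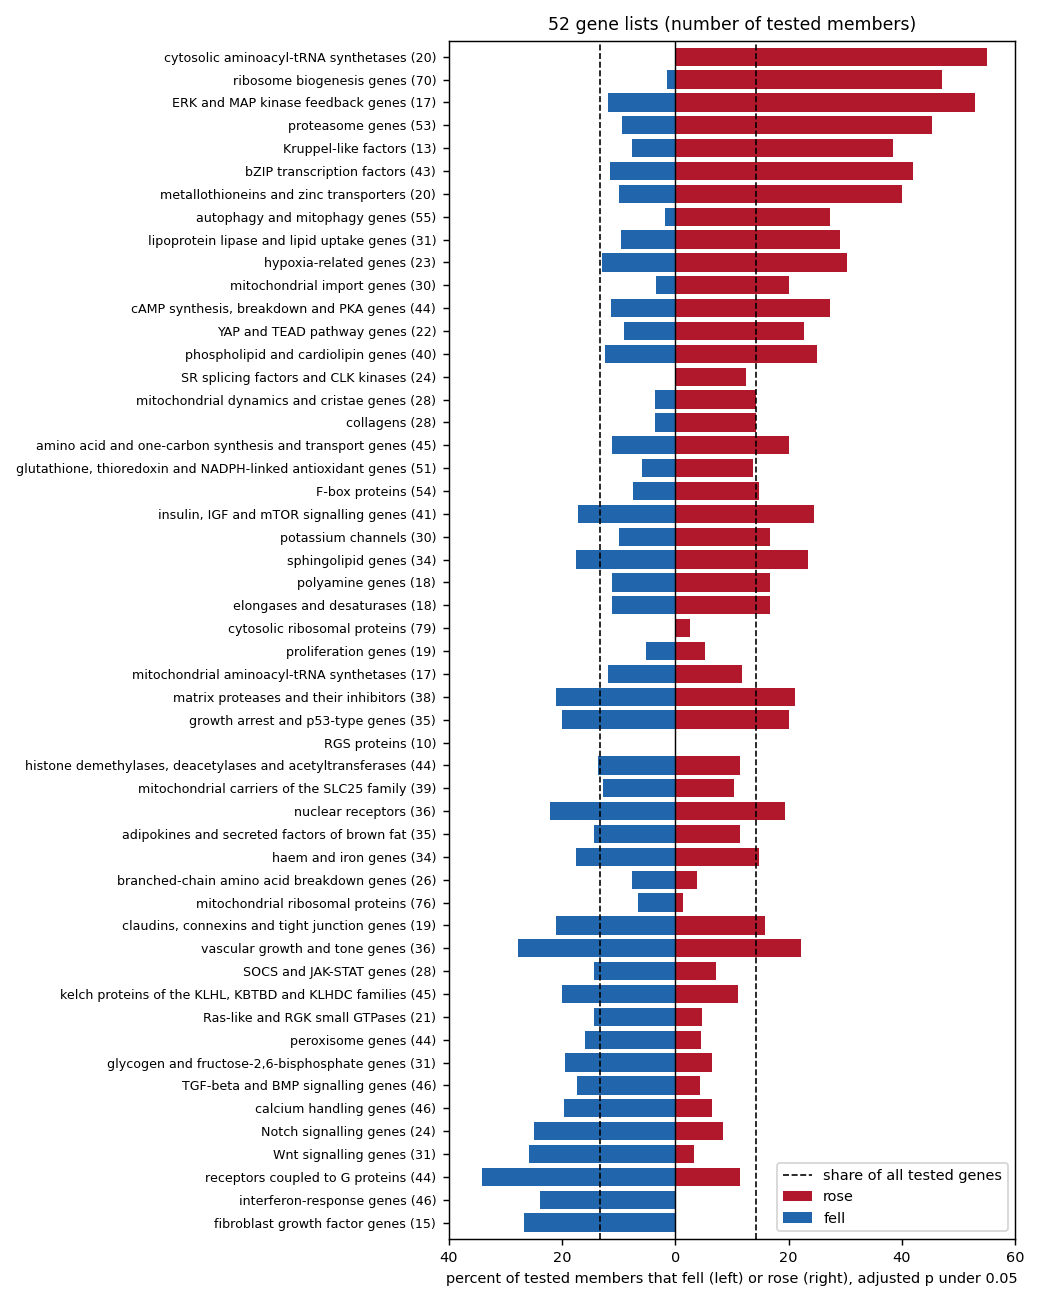
Percent of the tested members of 52 gene lists that rose (red, right) or fell (blue, left) at an adjusted p under 0.05, with the number of tested members in brackets. Dashed lines are the shares of all tested genes, 14.3% for rises and 13.3% for falls. Cytosolic aminoacyl-tRNA synthetases are at the top and fibroblast growth factor genes at the bottom.

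Genes that charge transfer RNAs in the cytosol rose in 11 of 20 cases and fell in 0. Aminoacyl-tRNA synthetases join each amino acid to its transfer RNA, and in many cell types they are targets of the transcription factor ATF4, which is made when amino acids run short or other stresses act. The median log2 change of the 20 cytosolic synthetases was 0.42. Under total-count scaling 9 rose and 0 fell, and 10 to 11 rose without any 1 library. Nars, for asparagine, read 48.9, 63.5, 49.2 and 42.6 CPM at 22 °C and 112, 95.6, 122, 86.4 and 81.6 CPM at 6 °C (0.98 ± 0.13, adjusted p = 6.27e-05). Cars rose by 0.97 ± 0.17 and Eprs by 0.92 ± 0.14, and Sars went from 30.6 to 44.0 CPM to 59.2 to 71.0 CPM (0.90 ± 0.11, adjusted p = 3.94e-05). Qars (-0.09 ± 0.11) and Vars (-0.24 ± 0.23) did not pass. Of the 17 mitochondrial synthetases 2 rose and 2 fell (1 and 4 under total-count scaling), and Cars2, the mitochondrial cysteine enzyme, went from 12.7 to 21.5 CPM to 30.7 to 57.1 CPM (1.16 ± 0.21, adjusted p = 0.000717). Atf4 itself read 66.7, 93.4, 67.4 and 61.6 CPM at 22 °C and 210, 178, 226, 137 and 162 CPM at 6 °C (1.36 ± 0.18, adjusted p = 7.2e-05), and the groups did not overlap.

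Promoter stretches that hold the letters of an ATF4 element are shown for risen genes of amino acid metabolism and stress, because this element is the known link between ATF4 and the synthetase genes. They come from RefSeq promoters (GRCm38.p6, 250 bases before to 50 after the start site), and the search was for TGATGNAA on both strands. The stretches run 5′ to 3′ on the gene's strand and lie before the start site, with the match in capitals. Aars, Tars and Gars were chosen after their values and matches were seen. Of the genes named by rule that rose and had a promoter in the table, 4 of 88 held the element (Got1, Gadd45g, Socs4 and Nop14), and 0 of the 48 that fell did.
Aars at chr8:111033706-111033761, plus strand: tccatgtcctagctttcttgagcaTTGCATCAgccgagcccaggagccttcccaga
Tars at chr15:11399659-11399697, minus strand: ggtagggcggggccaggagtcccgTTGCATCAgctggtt
Gars at chr6:55037947-55038000, plus strand: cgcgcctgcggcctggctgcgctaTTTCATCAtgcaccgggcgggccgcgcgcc
Got1 at chr19:43524676-43524731, minus strand: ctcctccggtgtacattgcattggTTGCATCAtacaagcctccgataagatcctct
Gadd45g at chr13:51846550-51846605, plus strand: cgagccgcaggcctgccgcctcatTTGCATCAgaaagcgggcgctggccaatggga

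The element was found in 223 of 9929 tested genes with a promoter in the table (2.25%), and in 3.04% of the 1448 risen genes with one. Among cytosolic synthetases with a promoter, it was found in 5 of the 7 that rose and in 0 of the 6 that did not pass. In Iars and Yars the match lay after the start site and is not printed, as did the second match of Aars. Only 13 of the 20 synthetases had an entry, under 80%, so this is void as a check of the list and describes these 13 promoters. A match says that the letters are present, not that ATF4 binds there. Log2 changes of the genes printed were 0.82 ± 0.15 for Aars, 0.59 ± 0.16 for Tars, 0.42 ± 0.09 for Gars (a call lost under total-count scaling), 1.56 ± 0.24 for Got1 and 1.03 ± 0.23 for Gadd45g. Gadd45g, a growth-arrest gene, read 17.4 to 25.5 CPM at 22 °C and 35.9 to 51.9 CPM at 6 °C.

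Amino acid carriers did not move one way. Of 45 genes for amino acid and one-carbon synthesis and transport, 9 rose, each by more than 2-fold, and 5 fell, against medians of -0.02 for the list and -0.03 for all genes. Under total-count scaling 8 rose and 10 fell, and only 2 fell without any 1 of the 22 °C libraries 1, 3 and 4 or the 6 °C library 3, and 3 without any 1 of the 6 °C libraries 1, 2 and 4. Slc3a2, the shared heavy chain of several amino acid exchangers, read 48.8, 80.9, 44.0 and 50.2 CPM at 22 °C and 199, 156, 192, 167 and 166 CPM at 6 °C (1.69 ± 0.24, adjusted p = 0.000107). Slc7a1, the carrier of arginine and lysine, rose from 1.77 to 7.62 CPM to 7.93 to 21.4 CPM (2.04 ± 0.44, adjusted p = 0.00275). Got1, the cytosolic aspartate aminotransferase, rose from 10.6 to 22.4 CPM to 32.2 to 57.7 CPM. The groups stood apart in each of these 3 genes. The glutamine carrier Slc1a5, by contrast, fell as given above.

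Many genes of ribosome assembly rose, and few ribosomal proteins passed the test. Of 70 ribosome biogenesis genes, which process ribosomal RNA and assemble its subunits in the nucleolus, 33 rose and 1 fell, with a median of 0.36. Under total-count scaling 14 rose and 5 fell, so the size of this count depends on the scaling, while the direction of the median (0.15) did not turn. Nop14, a small-subunit assembly factor, read 14.3, 17.2, 13.3 and 14.1 CPM at 22 °C and 30.9, 32.7, 33.3, 20.4 and 24.7 CPM at 6 °C (0.95 ± 0.14, adjusted p = 0.000145). Ddx21, a nucleolar RNA helicase, went from 32.2 to 42.6 CPM to 47.9 to 79.6 CPM (0.95 ± 0.13, adjusted p = 8.41e-05). Dkc1, the pseudouridine synthase dyskerin, was the exception and fell from 18.6 to 20.2 CPM to 10.3 to 13.2 CPM (-0.74 ± 0.10, adjusted p = 7.15e-05). The 79 cytosolic ribosomal proteins had a median of 0.04 (-0.16 under total-count scaling, with 0 calls), and in the 76 mitochondrial ones 1 rose and 5 fell around a median of 0.01 (0 and 10 under total-count scaling). Of those 5 falls 1 to 3 passed without any 1 library other than the 6 °C library 4, and 4 without that one.

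**Figure D4:**
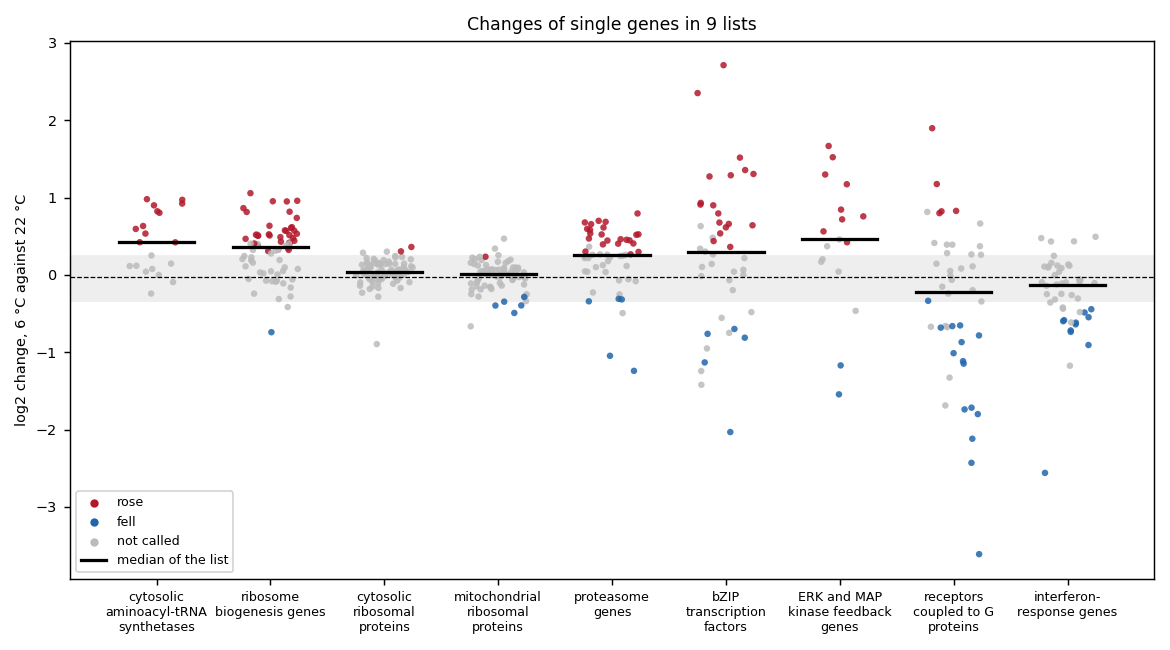
Log2 change at 6 °C against 22 °C of every tested gene in 9 lists, coloured by the call, with the median of each list as a black bar. The grey band spans the quartiles of all tested genes, -0.34 to 0.25, and the dashed line is their median, -0.03. Medians range from 0.46 for ERK and MAP kinase feedback genes to -0.22 for receptors coupled to G proteins.

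Proteasome genes rose in 24 of 53 cases, and subunits that interferon induces were among the 5 falls. The proteasome degrades ubiquitin-tagged proteins, and immune cytokines can exchange some of its catalytic subunits for others. The median of the list was 0.26 (13 rose and 8 fell under total-count scaling, median 0.06). The core subunit Psma1 read 59.3, 77.4, 69.9 and 70.4 CPM at 22 °C and 108, 126, 119, 95 and 110 CPM at 6 °C (0.70 ± 0.11, adjusted p = 0.000232). The regulatory subunits Psmd12 (0.69 ± 0.12) and Psmc2 (0.68 ± 0.11) and the extraction cofactor Nploc4 (0.79 ± 0.12) rose by similar amounts. The immunoproteasome subunits Psmb8 and Psmb9 went the other way, Psmb8 from 4.65 ± 0.538 to 2.26 ± 0.924 CPM (SD, -1.05 ± 0.27, adjusted p = 0.00933) and Psmb9 from 2.38 ± 0.353 to 0.991 ± 0.299 CPM (-1.24 ± 0.25, adjusted p = 0.00152). They were chosen after their values were seen. The further falls, of Psmd9, Psmg2 and Psme2, did not all pass without 1 library: 2 or 3 of the 5 passed without any 1 library other than the 6 °C library 4.

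Interferon-response genes showed 0 rises and 11 falls among 46, with a median of -0.13. Between 9 and 15 fell without 1 library, and 15 under total-count scaling. Tnfsf10, also known as TRAIL, read 11, 7.17, 9.04 and 14.2 CPM at 22 °C and 1.02, 2.39, 0.893, 1.46 and 2.75 CPM at 6 °C. Parp9 fell from 12.8 to 16.6 CPM to 8.03 to 10.8 CPM (-0.72 ± 0.11, adjusted p = 0.000193), and the chemokine Cxcl9 from 11.4 to 17.9 CPM to 6.67 to 9.49 CPM (-0.74 ± 0.14, adjusted p = 0.0011). The RNA sensor Ddx58, or RIG-I, fell by 0.59 on the log2 scale. Summed macrophage markers were at 61.7 to 87.4 CPM at 22 °C and 58.0 to 85.8 CPM at 6 °C, and 1 of 12, the scavenger receptor Cd163, passed the test, going from 5.56 to 7.67 CPM to 11.9 to 16.2 CPM (1.04 ± 0.21, adjusted p = 0.00186). T and B cell markers were near 0, at 0.596 to 1.34 CPM summed at 22 °C and 0.227 to 0.744 CPM at 6 °C.

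Autophagy genes rose more often than they fell, 15 against 1 of 55, with a median of 0.15 that turned to -0.05 under total-count scaling, where 8 rose and 6 fell. Sqstm1, the cargo receptor p62, read 76.4, 145, 110 and 100 CPM at 22 °C and 201, 210, 212, 212 and 226 CPM at 6 °C (1.00 ± 0.16, adjusted p = 0.000256). Gabarapl1, an ATG8-family membrane protein, rose from 76.4 to 123 CPM to 148 to 229 CPM (0.92 ± 0.16), Rb1cc1, a subunit of the ULK1 complex, rose by 0.91 ± 0.17 and Fnip1, the folliculin partner, by 0.92 ± 0.16. F-box genes, whose products choose targets for ubiquitin ligases, had 8 rises (14.8%, near the 14.3% of all genes) and 4 falls among 54. Under total-count scaling they had 6 rises and 10 falls. The falls numbered 2 without any 1 library other than the 22 °C library 4 and the 6 °C library 4, and 7 without the latter. The rises were led by Fbxo34 (1.16 ± 0.15, 3.93 to 5.46 CPM against 7.97 to 12.1 CPM). Kelch proteins of the KLHL, KBTBD and KLHDC families, many of which choose targets for cullin ligases, had 9 falls, 5 of them more than 2-fold, and 5 rises among 45. Under total-count scaling 15 fell and 1 rose, and only 2 or 3 rose without any 1 library other than the 6 °C libraries 4 and 5. Klhl42 fell from 11.6 to 14.2 CPM to 4.35 to 6.86 CPM (-1.09 ± 0.16, adjusted p = 0.000129).

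Stat5a, Igf1, Pik3r1, Irs3 and Foxo1, single genes of growth hormone and insulin signalling, each changed by more than 2-fold. Growth hormone acts through STAT5, which drives Igf1 and Socs2, while insulin acts through IRS proteins, PI3-kinase and AKT and holds FOXO factors out of the nucleus. Stat5a read 41.1, 36.3, 51.8 and 46.6 CPM at 22 °C and 8.16, 9.42, 8.69, 17.7 and 12.6 CPM at 6 °C (-1.97 ± 0.21, adjusted p = 1.71e-05). Igf1 read 27.5, 19.5, 15.9 and 18.6 CPM against 7.76, 7.03, 4.77, 6.11 and 10.4 CPM (-1.49 ± 0.33, adjusted p = 0.00332). Both had every cold library below every 22 °C library, whereas Socs2 rose as described above.

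Pik3r1, the p85 regulatory subunit of PI3-kinase, read 83.2, 61, 99.0 and 67.4 CPM at 22 °C and 18.4, 21.5, 16.7, 28.6 and 20.2 CPM at 6 °C (-1.88 ± 0.22, adjusted p = 3.14e-05). Irs3, an insulin receptor substrate of rodent adipocytes, read 11.7, 10.7, 14.8 and 15.4 CPM against 3.17, 1.61, 3.38, 3.02 and 3.59 CPM (-2.19 ± 0.19, adjusted p = 5.66e-06). Foxo1, which insulin restrains, rose from 53.1, 99.9, 96.6 and 86.3 CPM to 225, 191, 181, 203 and 182 CPM (1.24 ± 0.16, adjusted p = 6.87e-05). None of these 3 groups overlapped.

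In the list of 41 insulin, IGF and mTOR genes 10 rose and 7 fell (3 and 13 under total-count scaling), with a median of 0.06. Without the 22 °C library 1 or 4 only 6 rose, and without the 6 °C library 1 or 2 only 4 fell. Akt2, the main AKT of adipocytes, fell from 196 ± 10.8 to 125 ± 15.8 CPM (SD, -0.65 ± 0.14, adjusted p = 0.00301), chosen after its values were seen. The stress-induced mTORC1 inhibitor Sesn2 went from 10.9 to 21.3 CPM to 25.5 to 41.1 CPM (0.99 ± 0.27, adjusted p = 0.0114), a call that was lost under total-count scaling. Among the 28 SOCS and JAK-STAT genes 2 rose (7.14%) and 4 fell (14.3%), shares below and near those of all genes. Under total-count scaling 2 rose and 10 fell. DESeq2 and the fit on wild types alone each gave 5 rises. The Janus kinase Tyk2 fell from 7.06 to 7.71 CPM to 2.83 to 4.71 CPM (-0.97 ± 0.17), and Socs4 rose (0.71 ± 0.16).

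Receptors coupled to G proteins fell more often than they rose. Of 44 tested, 15 fell, 9 of them more than 2-fold, and 5 rose, with a median of -0.22 (17 fell and 5 rose under total-count scaling). Adora1, the adenosine receptor that lowers cyclic AMP and restrains lipolysis, read 52.5, 87.8, 113 and 70.3 CPM at 22 °C and 30.7, 40.3, 31.4, 52.4 and 32.3 CPM at 6 °C (-1.12 ± 0.25, adjusted p = 0.00326). Hcar1, the lactate receptor with the same kind of coupling, read 10.9, 14.3, 16.1 and 12.2 CPM against 1.81, 3.07, 1.82, 1.92 and 3.53 CPM. Adrb1, a beta-adrenergic receptor, read 12.7, 10.9, 11.7 and 12.9 CPM against 6.35, 7.81, 4.58, 4.94 and 6.19 CPM (-1.01 ± 0.19, adjusted p = 0.00117). The groups of Hcar1 and Adrb1 were well apart, while in Adora1 the highest cold library, 4, lay just below the lowest 22 °C library, 1. Adrb3, the main beta-adrenergic receptor of mouse brown fat, did not pass, at 107 ± 12.6 CPM and 116 ± 37.3 CPM (SD, 0.11 ± 0.22, adjusted p = 0.748). The sphingosine-1-phosphate receptor S1pr1 was among the rises, from 37.5 to 59.98 CPM to 68.7 to 85.9 CPM (0.80 ± 0.15, adjusted p = 0.000841).

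Genes that make, break down or anchor cyclic AMP signals had 12 rises (27.3%) and 5 falls (11.4%) among 44. Over all genes 14.3% rose and 13.3% fell, so the share of falls was below that of all genes. Under total-count scaling 7 of the 44 rose and 10 fell, and 3 fell without the 22 °C library 4. Akap12, a scaffold for protein kinase A, read 24.8, 39.8, 18.2 and 18.1 CPM at 22 °C and 79.5, 122, 85.8, 71.3 and 96.3 CPM at 6 °C (1.90 ± 0.18, adjusted p = 6.92e-06). The phosphodiesterases Pde4d (108 to 177 CPM against 283 to 354 CPM, 1.07 ± 0.15) and Pde7b (0.99 ± 0.20), which degrade cyclic AMP, rose. Adcy9, an adenylyl cyclase, fell from 14.7 to 27.0 CPM to 7.59 to 11.8 CPM (-1.17 ± 0.19, adjusted p = 0.000373).

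Feedback inhibitors of ERK and other MAP kinases rose, 9 of 17, with 2 falls and a median of 0.46 (7 and 3 under total-count scaling). These genes, the dual-specificity phosphatases, Sprouty and Spred proteins and Errfi1, are switched on by the pathways they damp. Dusp16, a JNK and p38 phosphatase, read 16.5, 28.4, 13.2 and 11.7 CPM at 22 °C and 53.5, 59.1, 51.1, 30.1 and 42.8 CPM at 6 °C (1.52 ± 0.19, adjusted p = 5.05e-05). Dusp8, of the same subfamily, rose from 1.45 to 6.21 CPM to 8.49 to 12.4 CPM (1.67 ± 0.41, adjusted p = 0.00595), Spry4 from 8.01 to 13.5 CPM to 19.6 to 32.6 CPM (1.30 ± 0.22) and Errfi1 from 16.8 to 21.0 CPM to 29.1 to 53.5 CPM (1.17 ± 0.25). Dusp7, an ERK phosphatase, fell from 13.5 ± 0.395 to 5.98 ± 0.654 CPM (SD, -1.17 ± 0.14, adjusted p = 4.54e-05), chosen after its values were seen.

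Transcription factors of the bZIP class, to which CREB, ATF, MAF and AP-1 proteins belong, rose in 18 of 43 cases and fell in 5, with a median of 0.30 (12 and 7 under total-count scaling). Nfil3, a repressor at D-box elements, read 5.12, 10.6, 6.23 and 8.38 CPM at 22 °C and 25.3, 21.5, 20.7, 19.0 and 20.7 CPM at 6 °C (1.52 ± 0.16, adjusted p = 1.64e-05). The falls were led by Cebpa, with 217, 225, 298 and 286 CPM against 51.4, 67.8, 39.9, 79.9 and 74.2 CPM. In both genes the temperatures were far apart relative to the spread within them. Krüppel-like factors had 5 rises and 1 fall among 13, though 3 rises without the 22 °C library 2 or under total-count scaling. Klf10 fell from 24 to 46.6 CPM to 11.5 to 15.2 CPM (-1.34 ± 0.17, adjusted p = 6.36e-05).

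Promoter stretches with the letters of a cyclic AMP response element are shown for 3 of the 6 risen genes named by rule that held one, of 88 with a promoter, because CREB-family factors bind this element downstream of protein kinase A. The search was for TNACGTCA on both strands in the same RefSeq promoters, and each match is in capitals. Among the 48 fallen genes named by rule 1 held it, the mitochondrial ribosomal protein gene Mrpl49. Dusp8 holds 2 matches, which do not overlap, and its 2 printed stretches share part of their flanks.
Dio2 at chr12:90739102-90739157, minus strand: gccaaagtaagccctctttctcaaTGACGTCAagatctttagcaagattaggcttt
Dusp8 at chr7:142095360-142095415, minus strand: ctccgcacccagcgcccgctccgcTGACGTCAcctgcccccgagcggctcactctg
Dusp8 at chr7:142095316-142095371, minus strand: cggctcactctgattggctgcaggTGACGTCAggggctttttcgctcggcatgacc
Plk3 at chr4:117134064-117134119, minus strand: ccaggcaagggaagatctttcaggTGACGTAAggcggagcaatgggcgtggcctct

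The element was present in 505 of 9929 promoters of tested genes (5.09%), in 7.80% of the 1448 risen genes with a promoter and in 2.80% of the 1288 fallen genes with one. In genes past 2-fold it was present in 6.42% of 218 rises and 1.09% of 367 falls. No other motif searched overlapped the capitals in any printed stretch. The E-box CACGTG was present in 10.2% of all, 14.1% of risen and 7.61% of fallen genes. The heat-shock element GAANNTTC was found in 5.51%, 6.15% and 5.20%, the D-box TTATGNAA in 1.91%, 1.52% and 2.17%, the glucocorticoid element ACANNNTGT in 3.95%, 4.01% and 3.96%, and the GC box GGGCGG in 64.7%, 69.6% and 65.8%. Because 79.5% of tested genes had an entry, under 80%, these shares are void as a check of all calls and describe only the promoters given. No test was made on them.

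Of the transcription factors among the brown adipocyte markers, Ebf2, Prdm16, Lhx8 and Zic1 fell in the cold and Pparg rose. Several abundant products of the mature cell did not pass the test, while the adipokine Adipoq fell. Ebf2, an early factor of the brown lineage, read 76.3, 61.8, 63.8 and 57.9 CPM at 22 °C and 34.6, 28.4, 35.0, 36.1 and 32.2 CPM at 6 °C (-0.98 ± 0.15, adjusted p = 0.000236). Prdm16, its partner in the brown programme, read 26.3, 24.2, 34.6 and 29.4 CPM against 16.5, 12.1, 15.4, 19.6 and 15.2 CPM (-0.87 ± 0.19, adjusted p = 0.0034). Lhx8 fell by 1.28 and Zic1 by 0.68 on the log2 scale. Pparg, the main regulator of fat cell differentiation, went from 185 ± 16.3 to 256 ± 35.3 CPM (SD, 0.47 ± 0.12, adjusted p = 0.00913), a call that was lost under total-count scaling, and Ppara (0.09 ± 0.15) did not pass. In the list of 16 brown adipocyte markers 3 rose and 5 fell, Adipoq among the falls, and 2 and 5 did so under total-count scaling. The fatty acid elongase Elovl3 rose from 59.8 to 175 CPM to 178 to 309 CPM (1.00 ± 0.27, adjusted p = 0.0122, and 0.058 without the 22 °C library 2 and the 6 °C library 4 together). Cidea (0.04 ± 0.14), Fabp4 (0.09 ± 0.11) and Plin1 (-0.15 ± 0.15), proteins of the lipid droplet and of fatty acid binding, did not pass.

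Nuclear receptors split into 7 rises (19.4%) and 8 falls (22.2%) among 36 (4 and 11 under total-count scaling). Over all genes 14.3% rose and 13.3% fell. Nr3c2, the mineralocorticoid receptor, read 8.03, 6.58, 10.8 and 6.93 CPM at 22 °C and 2.04, 2.45, 2.99, 2.89 and 1.82 CPM at 6 °C (-1.72 ± 0.21, adjusted p = 4.91e-05). The thyroid hormone receptor Thra fell from 37.7 to 43.9 CPM to 25.8 to 29.7 CPM (-0.63 ± 0.09, adjusted p = 0.000193), the estrogen receptor Esr1 from 20.0 to 39.8 CPM to 13.4 to 19.6 CPM (-0.97 ± 0.18) and the retinoic acid receptor Rarg from 6.95 to 9.73 CPM to 2.72 to 5.36 CPM (-1.01 ± 0.19). Thra encodes a receptor for the hormone that the enzyme made from Dio2 activates, and the levels of the 2 genes moved in opposite directions.

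Vascular genes changed in 18 of 36 cases, with 8 rises (22.2%) and 10 falls (27.8%), where 14.3% of all genes rose and 13.3% fell. Under total-count scaling 5 of the 36 rose and 13 fell, and 5 rose without the 6 °C library 2. Angpt1, the vessel-stabilising ligand of the TIE2 receptor, read 13.7, 12.4, 12.1 and 12.7 CPM at 22 °C and 3.40, 4.12, 4.19, 4.39 and 2.75 CPM at 6 °C (-1.75 ± 0.21, adjusted p = 3.14e-05). Efnb2, the ephrin of arterial endothelium, fell from 6.32 to 9.12 CPM to 3.69 to 5.93 CPM (-0.88 ± 0.19). Sox17, an arterial transcription factor, rose from 3.62 to 5.40 CPM to 8.03 to 10.4 CPM (1.09 ± 0.16, adjusted p = 0.000145), and the growth factor Vegfa from 231 to 269 CPM to 318 to 468 CPM (0.62 ± 0.14, adjusted p = 0.00339). Summed endothelial markers were at 369 to 479 CPM at 22 °C and 449 to 555 CPM at 6 °C, and none was at 0. Of the 11 markers 2 rose, Pecam1 (0.53 ± 0.12) and Esam (0.63 ± 0.14, a call lost under total-count scaling). The 2 that fell were Tie1 and Tek, and 1 or 2 falls passed when 1 library was left out. Under total-count scaling 1 of the 11 rose and 4 fell. Pericyte markers summed to 444 to 581 CPM and 492 to 596 CPM, and 3 of 10 fell (4 under total-count scaling), led by Cspg4 with 39.5 to 54.9 CPM against 12.8 to 24.2 CPM (-1.29 ± 0.24, adjusted p = 0.000984). The part of these cells in the vascular changes was not tested.

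Markers of other cells gave few calls. Nerve and Schwann cell markers summed to 85.6 to 120 CPM at 22 °C and 140 to 168 CPM at 6 °C, with 1 rise and 1 fall among 6. The fall was that of Sox10, by more than 2-fold, and it did not pass in every fit that left out 1 library. The rise was that of Pmp22, a myelin protein also made by other cells, which read 36.2, 47.6, 35.4 and 39.1 CPM at 22 °C and 79.9, 71.8, 76.0, 95.7 and 110 CPM at 6 °C (1.14 ± 0.18, adjusted p = 0.000328). All cold libraries lay above all 22 °C libraries. Of 11 fibroblast and progenitor markers 1 rose, Ly6a, or SCA-1 (0.60 ± 0.13, a call lost under total-count scaling), and 0 fell. Of 4 tested white adipocyte markers 1 fell, the hormone leptin (Lep, 5.79 ± 4.77 CPM against 0.640 ± 0.795 CPM, SD, -3.05 ± 0.78, adjusted p = 0.00787). Under total-count scaling 2 fell, and the call of Lep was lost without the 22 °C library 2 and the 6 °C library 4 together (adjusted p = 0.0902). Of the 4 white adipocyte markers in the data that were not tested, Hoxc10, Tcf21 and Wt1 were at 0 in every wild-type library and Hoxc9 was not. Hoxc8 was tested and did not pass. Red cell markers had 0 calls among 6. The part of any of these cells in the lists described here was not tested.

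Sphingolipid genes changed in both directions, with 8 rises and 6 falls among 34 (6 and 11 under total-count scaling). Acer2, a Golgi ceramidase that frees sphingosine, read 39.1, 81.9, 55.6 and 41.9 CPM at 22 °C and 175, 160, 170, 135 and 174 CPM at 6 °C (1.59 ± 0.21, adjusted p = 6.9e-05). Sgms1, which turns ceramide into sphingomyelin, read 14.4, 24.6, 15.8 and 16.1 CPM against 46.6, 54.5, 51.4, 44.1 and 52.7 CPM (1.52 ± 0.12, adjusted p = 3.46e-06). Sgpl1, the lyase that ends the pathway by splitting sphingosine-1-phosphate, rose from 139 to 208 CPM to 250 to 478 CPM (1.15 ± 0.17, adjusted p = 0.000195). No cold library overlapped the 22 °C group in any of the 3. The falls were those of the receptors S1pr3, S1pr4 and S1pr5, the exporter Spns2, the sphingomyelinase Smpd2 and Ormdl1, a regulator of the first step of synthesis. They numbered 2 or 3 without any 1 of the 22 °C libraries 2, 3 and 4 and the 6 °C libraries 1, 2 and 3, and 4 without each other one.

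Lipid uptake and phospholipid synthesis genes held rises and falls, with shares of falls below that of all genes. Lipg, endothelial lipase, read 6.46, 7.81, 8.13 and 7.49 CPM at 22 °C and 18.5, 23.1, 17.8, 25.2 and 28.1 CPM at 6 °C (1.59 ± 0.18, adjusted p = 2.19e-05). Angptl2, an angiopoietin-like secreted protein, fell from 34.5 to 64.9 CPM to 17.0 to 20.7 CPM (-1.28 ± 0.25, adjusted p = 0.00121), and the fatty acid transporter Slc27a1 from 87.1 to 134 CPM to 51.2 to 70.1 CPM (-0.96 ± 0.24). Of 31 uptake genes 9 rose (29.0%) and 3 fell (9.68%), where 14.3% of all genes rose and 13.3% fell. Under total-count scaling 5 uptake genes rose and 6 fell, and 5 rose without the 6 °C library 1 or 2. Chka, choline kinase alpha, which starts phosphatidylcholine synthesis, rose from 5.72 to 10.5 CPM to 12 to 25.7 CPM (1.51 ± 0.24, adjusted p = 0.000295). Its list of 40 phospholipid genes had 10 rises and 5 falls, and 3 and 7 under total-count scaling, with 1 to 3 falls without any 1 library other than the 6 °C library 4.

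Genes of glycogen and of fructose bisphosphate metabolism, counted as 1 list, held rises and falls, with a share of rises below that of all genes. Ugp2, which makes the UDP-glucose used for glycogen, read 228, 301, 158 and 139 CPM at 22 °C and 545, 702, 792, 544 and 606 CPM at 6 °C (1.68 ± 0.17, adjusted p = 1.63e-05). Ppp1r3b, a subunit that brings protein phosphatase 1 to glycogen and favours its synthesis, read 303, 290, 184 and 202 CPM against 96.9, 122, 119, 137 and 90.2 CPM (-1.11 ± 0.19, adjusted p = 0.000605). Ppp1r3d, of the same family, read 28.2, 23.6, 27.8 and 28.4 CPM against 9.07, 12, 9.93, 11.2 and 12.7 CPM (-1.30 ± 0.12, adjusted p = 6.92e-06). The temperatures stood apart in all 3. Glycogen synthase Gys1 (-0.10 ± 0.14) and its second form Gys2 (0.32 ± 0.18) did not pass. Of the 31 genes of the list 2 rose (6.45%) and 6 fell (19.4%), and the same counts were found under total-count scaling. Over all genes 14.3% rose and 13.3% fell. The second rise, Tigar, and the falls of Pfkfb1 and Pfkfb4 belong to fructose bisphosphate metabolism.

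Members of the Hippo pathway, which restrains the transcriptional coactivators YAP and TAZ and their TEAD partners, were among the larger rises. Sav1, the scaffold of the Hippo kinases, read 57.4, 137, 80.5 and 82.7 CPM at 22 °C and 363, 275, 393, 286 and 344 CPM at 6 °C (1.94 ± 0.19, adjusted p = 9e-06). Tead1 read 42.0, 130, 98.6 and 93.3 CPM against 380, 173, 291, 222 and 279 CPM (1.62 ± 0.32, adjusted p = 0.00151). Mob1b (0.86 ± 0.22) and the kinase Lats1 (0.56 ± 0.12) rose less, and Yap1 (0.26 ± 0.11, adjusted p = 0.104, and 0.0331 in wild types only) and Lats2 (0.01 ± 0.12) did not pass. In all, 5 of 22 rose and 2 fell, and 4 and 6 did so under total-count scaling. Neither fall passed in every fit that left out 1 library, where 0 to 2 did.

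Developmental ligands and receptors fell more often than they rose. Of 31 Wnt genes 8 fell (25.8%) and 1 rose (3.23%), with a median of -0.26. Over all genes 13.3% fell and 14.3% rose. Under total-count scaling 11 Wnt genes fell and 0 rose, and 5 fell without the 22 °C library 3. Wnt5a, a ligand of the noncanonical branch, read 12.3, 11.6, 11.8 and 11.4 CPM at 22 °C and 4.19, 4.62, 3.07, 5.10 and 3.88 CPM at 6 °C (-1.50 ± 0.17, adjusted p = 2.19e-05). Tcf7l2, a nuclear effector of beta-catenin, fell from 8.74 to 12.1 CPM to 4.12 to 6.11 CPM (-0.92 ± 0.14, adjusted p = 0.00021), and the receptor Fzd1 from 8.32 to 9.17 CPM to 4.23 to 6.46 CPM (-0.60 ± 0.14). Among 24 Notch genes 6 fell and 2 rose (10 and 1 under total-count scaling), with Notch2 at 17.7 to 23.2 CPM against 8.65 to 12.2 CPM (-0.89 ± 0.15, adjusted p = 0.000382). Only 3 of the 6 passed without any 1 of the 22 °C libraries 1 and 2 and the 6 °C libraries 1 and 3. Of 15 fibroblast growth factor genes 4 fell and 0 rose (5 and 0 under total-count scaling, and 2 falls without the 22 °C library 1). Klb, the co-receptor of FGF21, fell from 41.8 to 52 CPM to 19.3 to 34.7 CPM (-0.88 ± 0.18, adjusted p = 0.00154) and its partner Fgfr1 from 34.8 to 44.1 CPM to 19.7 to 28.2 CPM (-0.63 ± 0.13, adjusted p = 0.00218). The groups of each gene named here did not overlap.

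Metal transport and antioxidant genes gave several rises. Slc39a14, which carries zinc and non-transferrin iron into cells, read 21.0, 32.8, 18.8 and 22.5 CPM at 22 °C and 94.8, 46.9, 66.8, 111 and 95.7 CPM at 6 °C (1.81 ± 0.23, adjusted p = 5.83e-05). Slc40a1, ferroportin, the only known exporter of iron, fell from 9.58 to 24.9 CPM to 4.11 to 6.91 CPM (-1.70 ± 0.29, adjusted p = 0.000485). The metal-binding Mt2 rose from 12.6 to 32.4 CPM to 43.8 to 136 CPM (1.59 ± 0.36, adjusted p = 0.00384) and its regulator Mtf1 from 12.9 to 16.6 CPM to 17.5 to 27.6 CPM (0.77 ± 0.14). Of 20 metallothioneins and zinc transporters 8 rose and 2 fell (6 and 4 under total-count scaling). Of 51 antioxidant genes 7 rose and 3 fell, shares of 13.7% and 5.88% that are near or below those of all genes (4 and 8 under total-count scaling), with Txnrd1, thioredoxin reductase, at 44.4 to 57.6 CPM against 72.1 to 85 CPM (0.67 ± 0.10, adjusted p = 0.000168).

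Genes of the cell surface and the matrix changed in both directions. Cldn1, a tight junction protein, read 11.8, 14.2, 5.20 and 16.5 CPM at 22 °C and 40.3, 50.4, 37.8, 57.2 and 58.1 CPM at 6 °C (2.06 ± 0.38, adjusted p = 0.000831). The potassium channel Kcnk3 read 341, 391, 344 and 385 CPM against 719, 693, 688, 563 and 676 CPM (0.88 ± 0.12, adjusted p = 7.2e-05). Timp3, an inhibitor of matrix proteases, rose from 119 to 166 CPM to 254 to 336 CPM (1.11 ± 0.13, adjusted p = 3.7e-05), and the protease Adamts1 from 7.65 to 13.2 CPM to 22.0 to 33.9 CPM (1.36 ± 0.23). Matrix proteases and inhibitors had 8 rises, 6 of them more than 2-fold, and 8 falls among 38, each 21.1% and above the shares of all genes. Under total-count scaling 8 rose and 11 fell, and 4 fell without the 22 °C library 1. Among 46 calcium handling genes 3 rose (6.52%) and 9 fell (19.6%), with 2 and 15 under total-count scaling. Over all genes 14.3% rose and 13.3% fell. Camkk2, a kinase upstream of AMPK, was at 12.1 to 19.5 CPM against 5.98 to 9.14 CPM (-1.15 ± 0.17, adjusted p = 0.000209). Between 3 and 5 falls of calcium handling genes passed without any 1 of the 22 °C libraries 1, 2 and 4 and the 6 °C libraries 2 and 3.

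Risen and fallen genes differed in level. The median over the wild-type libraries was 5.35 RPKM for risen, 1.18 RPKM for fallen and 2.25 RPKM for all tested genes, and 0.461 RPKM for genes that fell more than 2-fold. Median gene lengths were 5110.5 bases for risen, 4703.5 bases for fallen and 4361 bases for all tested genes. Both are descriptions without a test, and a low level sets how small a change could be called.

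The wild-type response was set against that of the knockouts by the difference of the 2 cold responses. It passed for 1 of 12486 genes (0.00801%) in edgeR and for 1 in DESeq2, with 310 genes at an unadjusted p under 0.05. The gene was Elf2, an ETS transcription factor, with 25.2, 23.1, 24.5 and 23.6 CPM in wild types at 22 °C and 29.97, 32.9, 33.3, 25 and 31.4 CPM at 6 °C. In the knockouts it read 15.7, 16.9, 16.2 and 13.4 CPM at 22 °C and 4.58, 4.83, 5.17 and 5.55 CPM at 6 °C, so that the knockout response was lower by 1.97 ± 0.15 on the log2 scale (log2 difference -1.97, adjusted p = 2.54e-06). Whether the loss of Nocturnin lies behind this difference was not tested. The wild-type rise of Elf2 was 0.34 ± 0.10 (adjusted p = 0.0177). It did not pass under total-count scaling (0.402), in females only (0.108), or without the 22 °C library 2 (0.0597) or the 6 °C library 2 (0.051). For every other gene named above the adjusted p of the difference was 0.999686, so none of the changes described was shown to be particular to wild-type animals.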

How the data were processed

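Messenger RNA from the brown adipose tissue of single mice was sequenced as 1 library per mouse. STAR and HTSeq were used with mm10 and GRCm38.p6, per the submitters' processing notes; their versions, the annotation and the strand setting are not given in the sources used here. The deposited table holds whole counts per gene symbol, and a second deposited table holds RPKM values, which equalled the deposited counts divided by gene length and column total to a relative spread of 3.20e-06 over 12602 genes. Genes that overlap, antisense genes and close copies can share counts. Library totals set the precision, and the intervals given cover the spread between mice.

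The counts were tested with edgeR 4.0.16 in R 4.3.3. Genes were kept by filterByExpr over the 4 genotype and temperature groups (12486 of 21982), libraries were scaled by TMM, and a quasi-likelihood fit with group means and labelled sex over all 17 libraries (12 residual degrees of freedom) gave the contrast of 6 °C against 22 °C in wild types. Adjusted p-values are edgeR quasi-likelihood p-values with the Benjamini-Hochberg adjustment over all tested genes, called at 0.05 with no minimum fold, and SE is the log2 change divided by the root of F. The test was checked on simulated data. CPM values are relative to the TMM-scaled library size. Alternatives used DESeq2 1.42.0 and limma 3.58.1.

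The genes and lists were chosen with earlier results of these data known. Genes named by rule were Noct, the 12 largest rises and falls and the 5 largest RPKM changes in each direction, with at least 5 CPM in 1 group, no overlap between temperatures and a call kept without any 1 wild-type library, without the sex term and with the replicate block, plus up to 4 such genes of each list (192 in all), or the 2 most abundant where none was called. Members named beside these, and Elf2, were chosen after their values were seen, as were the promoters of Aars, Tars and Gars, which go beyond the rule's genes. Promoters were matched by symbol for 9929 of the tested genes. Counts per list carry no test. Some genes that the rule names are not reported here.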

Additional observations from a re-analysis of the deposited data

Results flagged for a closer look

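Among the 192 genes named by rule, each temperature group was searched for a library far from the others by Dixon's ratio. Of 384 such groups 23 stood out, where chance gives about 1 in 20. In 11 of the 23 the library was the 22 °C library 2, a male, and it lay toward the cold group in each of them: Ppargc1a at 493 CPM, Socs2 at 17.5 CPM, Plk3 at 12.1 CPM, Hsph1 at 81.4 CPM, Errfi1 at 21.0 CPM, Slc7a1 at 7.62 CPM, Slc3a2 at 80.9 CPM, Ddx21 at 42.6 CPM, Chka at 10.5 CPM and Sgms1 at 24.6 CPM, all high for 22 °C, and Ppp1r3d at 23.6 CPM, low for 22 °C. The other 3 libraries of that group lay between 92.4 and 116 CPM for Ppargc1a and between 4.04 and 5.29 CPM for Socs2. The same library was nearest to the cold group on the first principal component.

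The 6 °C library 4 stood apart in 4 genes, with Adam17 at 33.4 CPM, Thra at 29.7 CPM and Kcnk3 at 563 CPM toward the 22 °C level, and the keratin Krt18 at 1.27 CPM where the other 4 cold libraries were at 0. The 6 °C library 2 was low for Irs3 (1.61 CPM) and high for the glutamate carrier Slc1a1 (7.19 CPM), and the 6 °C library 3 was high for Gclm (63.4 CPM), a subunit of the enzyme that starts glutathione synthesis. At 22 °C, library 3 was low for the polyamine acetyltransferase Sat1 (21.0 CPM) and the peroxisomal carrier Slc25a17 (72.8 CPM), and library 4 was low for Klf6 (24 CPM). Library 1 of that group was low for the haemoglobin genes Hbb_bs (27.6 CPM, against 106 to 114 CPM in the others) and Hba_a1 (4.66 CPM).

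The cold response of Elf2 differed between genotypes, with a log2 difference of -1.97 (knockout minus wild type), as given above.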

How the results depend on the processing

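Among the 192 genes named by rule no called direction turned under any alternative, and 107 lost their call against a fold of 1.5, where 381 genes passed in all, 180 higher and 201 lower. Total-count scaling gave 860 higher and 2873 lower genes, log2(RPKM + 1) gave 881 and 3115, and log2(RPKM + 0.1) gave 854 and 2959. Of the 192, Noct, Sesn2, Apc, Rhoj, Srsf6, Odc1, Hspa9, Timm17a, Opa3, Selenoi, Esam and Ly6a lost their call under total-count scaling. Without 1 wild-type library 2605 to 3658 genes passed, 1414 to 1936 higher and 1191 to 1722 lower, and no call shared with the full set changed direction. Without the 22 °C library 2 and the 6 °C library 4, a setting chosen after seeing the data, 3186 passed, and of the 192 Noct, Timm17a and Elovl3 lost their call. The difference between genotypes passed for 0 genes in females only, where each knockout group is 1 library that is assumed to vary like the wild types. Replicate numbers are not stated to pair the mice. Deviations of same-numbered wild types correlated at -0.41, 0.17, 0.37 and -0.20, and not every library was closest to its own number. The 22 °C library 1 and the 6 °C library 4, both female and labelled 23.57 and 23, were closest to each other. So were the 22 °C library 4 and the 6 °C library 1, and library 3 of each group, all female and labelled 11.14. Pairing by age was not tested. With sex and age as terms 3494 genes passed, 1818 higher and 1676 lower. With the replicate number as a block and the sex term 2609 genes passed, 1391 higher and 1218 lower, 2542 of them shared with the same direction, and 2751 passed without the sex term. Of the 192 genes Noct alone lost its call with the block (adjusted p = 0.0841, and 0.0686 without the sex term). Of the counts of called list members that reached 4, 34 moved by more than 1.5 times under total-count scaling, 34 and 31 on the 2 RPKM scales, 61 against a fold of 1.5, 14 with the block and sex term, 6 in females only, 5 in wild types only, 3 without the filter on low counts and 1 in DESeq2 (rises of mitochondrial dynamics genes, 7 against 4). With the block, falls numbered 5 for Wnt, 3 for cyclic AMP, 1 for sphingolipid and 4 for matrix protease genes. In wild types only, falls numbered 7 for F-box, 12 for peroxisome and 3 for sphingolipid genes. Low counts limit the calls of weakly expressed receptors and ligands, and checks of promoter content over all calls are void.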

Other observations

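Hypoxia-related genes gave 7 rises, 5 of them more than 2-fold, and 3 falls among 23, and 4 rises without the 22 °C library 4 (5 and 3 under total-count scaling). P4ha1 and P4ha2, the catalytic subunits of collagen prolyl hydroxylase, both rose. P4ha1 read 24.6, 41.4, 16.9 and 24.6 CPM at 22 °C and 115, 119, 134, 87.5 and 140 CPM at 6 °C. P4ha2 read 4.79, 4.88, 3.66 and 3.55 CPM against 11.4, 8.68, 9.47, 8.78 and 10.7 CPM (log2 change 1.19 ± 0.15, edgeR quasi-likelihood adjusted p = 6.27e-05). Both had every cold library above every 22 °C library. Collagens, their substrates, had 4 rises (14.3%) and 1 fall (3.57%) among 28. The share of rises was that of all genes, 14.3%, and the share of falls was below their 13.3%. Collagens had 2 rises without the 22 °C library 1 or the 6 °C library 2 (2 and 2 under total-count scaling).

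Mitochondrial carriers of the SLC25 family had 4 rises and 5 falls among 39, close to the shares of all genes (2 and 8 under total-count scaling), and 3 falls without the 22 °C library 3 or 4 or the 6 °C library 5. Slc25a48 fell from 16.9, 16, 13.8 and 13.9 CPM to 4.93, 7.41, 4.54, 7.90 and 5.58 CPM (-1.31 ± 0.22, adjusted p = 0.000441), and the groups were well apart. Among 44 peroxisome genes 2 rose (4.55%) and 7 fell (15.9%), the latter near the 13.3% of all genes. Under total-count scaling 2 rose and 17 fell. Falls numbered 2 to 4 without any 1 library other than the 22 °C library 1 and the 6 °C libraries 2 and 4. Pex26, an anchor of the import machinery, fell from 4.89 to 6.12 CPM to 1.82 to 2.86 CPM (-1.17 ± 0.17, adjusted p = 0.000128), whereas Pex13, part of the import pore, rose from 101 to 118 CPM to 129 to 173 CPM (0.57 ± 0.11, adjusted p = 0.000951). Growth-arrest genes had 7 rises and 7 falls among 35, each 20.0%, and 6 and 12 under total-count scaling. Over all genes 14.3% rose and 13.3% fell. Cdkn1a, the cell cycle inhibitor p21, rose from 28.1 to 103 CPM to 213 to 272 CPM (1.76 ± 0.31, adjusted p = 0.000649), and Cdkn2c, the inhibitor p18, fell from 20.4 to 39.7 CPM to 10.0 to 14.4 CPM (-1.34 ± 0.20, adjusted p = 0.000164). Proliferation genes had 1 rise and 1 fall among 19 (0 and 2 under total-count scaling).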
